A study of Rattus norvegicus with 3 samples.

Results

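The endothelium and pericytes that make up the blood-brain barrier were followed through 10 genes in the rat cerebellar cortex after a stroke in the right forebrain. The genes were taken by their known roles, with earlier results of these data known. Cldn5, Ocln, Tjp1, Pecam1 and Cdh5 stand for junctions between endothelial cells, Mfsd2a, Abcb1a and Abcg2 for transporters, and Pdgfrb and Rgs5 for mural cells. Probes were assigned to them through the RefSeq accession given with each spot, which gave 13 probes for the 10 genes. The arrays held 38973 genes in this count, in which an accession without a matching RefSeq gene stands as a gene of its own. There were 3 probes for Ocln, 2 for Rgs5 and 1 for each of the others, and each of them was well above background, as the scanner software calls it, on every array.

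The rats were male Wistar rats, 9 weeks old. In the MCAO group the right middle cerebral artery had been occluded for a time and opened again, and both cerebellar cortices were taken 2 days later. The left cortex is contralateral and the right cortex ipsilateral to the infarct. The control was the left cerebellar cortex 2 days after sham surgery. Tissue of 4 rats was pooled for each of the 3 arrays, and there was 1 array for each condition, so no difference has a replicate check and no test was made. Both MCAO pools came from the same 4 rats, and both are set against the same control array.

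Brain capillaries differ from those of most organs in that their endothelial cells are sealed by tight junctions, take up little by vesicles and carry dedicated transporters and efflux pumps. Pericytes share their basement membrane, and astrocyte endfeet cover the outside. In rodents, barrier function is known to depend on signals from pericytes and on Wnt ligands from neurons and glia, and loss of barrier function after a stroke is best known from the infarcted tissue itself.

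Signals are given as log2 of the background-subtracted spot intensity, shifted so that all 3 arrays have the same 75th percentile. A log2 ratio is the difference between 2 arrays on that scale. Its error, called the scanner error here, comes from the error that the scanner software gives for each spot, and has a median of 0.21. It covers neither rats nor hybridisations. A ratio above 1 or below -1 is called past the fold. For comparison, 22085 genes, unmatched accessions included, had all of their probes well above background throughout, and these are called the measured genes. Their median log2 ratio was 0.01 for contralateral to control, 0.03 for ipsilateral to control and -0.01 for contralateral to ipsilateral. The central 95% of their ratios lay between -0.70 and 0.77, between -0.66 and 1.09, and between -0.83 and 0.36 in the same order.

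Every ratio carries the scaling between arrays. Without scaling, the median log2 ratio of the measured genes was -0.14 for contralateral to control, -0.50 for ipsilateral to control and 0.37 for contralateral to ipsilateral, and with spike-in scaling -0.07, -0.12 and 0.06. Relative to that median, 9 of the 10 members had ratios to control on the same side of 0 under all 10 settings, and Tjp1 changed sign on the ipsilateral side under normexp.

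The tissue label was checked against markers of the cerebellar cortex. All 8 granule cell markers and all 8 Purkinje cell markers were matched and measured. The granule cell list had a median log2 ratio to control of 0.03 for the contralateral and -0.01 for the ipsilateral pool, and the Purkinje cell list had medians of 0.14 and 0.12. The summed linear signal of the granule cell list was 88581 on the contralateral, 87634 on the ipsilateral and 88825 on the control array. That of the Purkinje cell list was 225709, 225102 and 204409.

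The junction genes differed in how far they lay from the control. Cldn5, the main claudin of brain endothelium, had a scaled log2 signal of 10.94 on the control array, 10.75 on the contralateral array and 10.79 on the ipsilateral array. Its log2 ratios to control were -0.19 and -0.14, each within its scanner error of 0.20. They were beyond it with spike-in scaling, at -0.27 and -0.30, and without scaling, at -0.34 and -0.68, and the contralateral ratio was so with the deposited values, at -0.23. Tjp1, which encodes the scaffold protein ZO-1, had signals of 10.35, 10.39 and 10.34 in the same order. Its ratios of 0.04 and -0.01 were the nearest to 0 among the 10 genes, with signs that changed between settings and an ipsilateral ratio of -0.55 without scaling.

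Ocln encodes occludin, a membrane protein of the tight junction strand. Its scaled log2 signal, the mean of 3 probes, was 7.65 on the control array, 7.74 on the contralateral array and 7.84 on the ipsilateral array. The ratios to control were 0.09 and 0.19 with an error of 0.21, both below 0 without scaling. With the brightest probe alone the ipsilateral ratio was 0.26, beyond that error. Single probes ran from -0.06 to 0.21 on the contralateral side and from 0.04 to 0.26 on the ipsilateral side. The 3 probes differed in sign on the contralateral side, where the lowest was the only ratio below 0.

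Pecam1 encodes the adhesion molecule CD31, found where endothelial cells meet. Its signal was 8.78 on the control array, 8.54 on the contralateral array and 8.68 on the ipsilateral array. The contralateral ratio of -0.24 was just beyond its scanner error of 0.20, and the ipsilateral ratio of -0.10 was not. Under normexp the contralateral ratio was -0.17, within the error, and the ipsilateral ratio was beyond it with spike-in scaling, at -0.26, and without scaling, at -0.64. In bulk tissue, fewer endothelial cells and less RNA per cell cannot be told apart.

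Cdh5 encodes VE-cadherin, the cadherin of endothelial adherens junctions. It was the member that differed most between the sides of the MCAO rats, with a signal of 5.87 on the control array, 5.79 on the contralateral array and 6.31 on the ipsilateral array. The ipsilateral ratio to control was 0.43 and the contralateral ratio -0.09, each with an error of 0.21, and without scaling they were -0.10 and -0.24. The contralateral to ipsilateral ratio was -0.52 with an error of 0.21, and 6.33% of the measured genes had a lower one. It was -0.34 under normexp, and -0.14 without scaling, which is within the error. The probe is dim, with an unscaled signal of 68.8 on the control array, 58.2 on the contralateral array and 64.1 on the ipsilateral array.

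**Figure D1:**
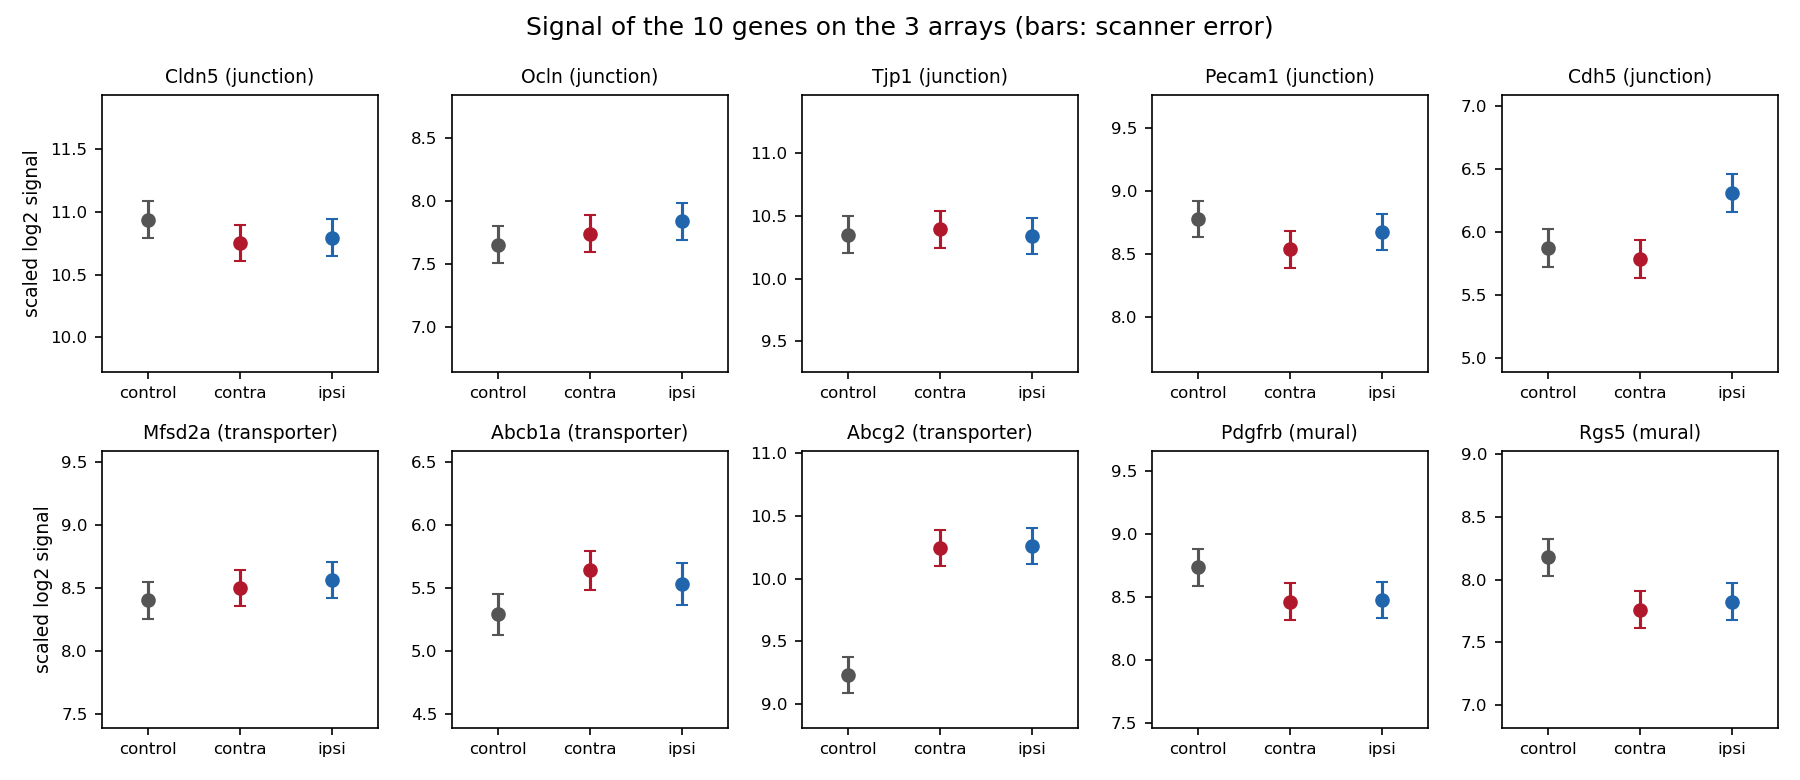
Scaled log2 signal of each of the 10 genes on the control, contralateral and ipsilateral arrays, 1 panel a gene, with the scanner error of each signal as a bar; each panel spans the same number of log2 units around the gene's own mean. Abcg2 sits at 9.23 on the control array and above 10 on both MCAO arrays, and Cdh5 is highest on the ipsilateral array.

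Among the transporters, Abcg2 stood apart. It encodes the breast cancer resistance protein, an efflux pump on the blood side of brain capillaries. Its scaled log2 signal was 9.23 on the control array, 10.24 on the contralateral array and 10.26 on the ipsilateral array. The ratios to control were 1.01 and 1.03 with an error of 0.20, which are 2.01-fold and 2.04-fold. The MCAO pools differed from each other by -0.02, or by 0.36 without scaling. Among the measured genes, 1.39% had a higher contralateral ratio and 2.90% a higher ipsilateral ratio.

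Abcg2 was thus just past the fold on both sides, and 4 of the 9 alternatives in processing left it below. The contralateral ratio ran from 0.85 to 1.04 over all 10 settings and the ipsilateral ratio from 0.49 to 1.04, with the lowest values where the arrays were not scaled to each other. Taken relative to the median of the measured genes under the same setting, they ran from 0.94 to 1.01 and from 0.96 to 1.03.

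Abcb1a encodes P-glycoprotein, the other main drug efflux pump of the barrier. Its signal was 5.29 on the control array, 5.64 on the contralateral array and 5.53 on the ipsilateral array. The ratios of 0.35 and 0.24 to control were above their scanner errors of 0.22 and 0.23, but the probe is dim, with unscaled signals of 45.8, 52.7 and 37.4 in that order. Under normexp background correction with quantile normalization they were 0.19 and 0.08, both smaller than those errors. The ipsilateral ratio was also within its error with quantile normalization alone, spike-in scaling and the deposited values, at 0.14, 0.09 and 0.18, and the contralateral ratio without scaling, at 0.20.

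Mfsd2a encodes the transporter of lysophospholipids that carry docosahexaenoic acid into the brain, and is known to hold down vesicle transport in barrier endothelium. Its signal was 8.40 on the control array, 8.50 on the contralateral array and 8.56 on the ipsilateral array. The ratios of 0.10 and 0.16 were within the scanner error of 0.20, though without scaling the ipsilateral ratio was -0.37. All 3 transporters had ratios above 0 on both sides under the main setting, and without scaling Mfsd2a was below 0 on both sides and Abcb1a on the ipsilateral side.

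Both mural genes were lower in the MCAO pools. Pdgfrb encodes the receptor by which pericytes respond to platelet-derived growth factor B from endothelium. Its scaled log2 signal was 8.74 on the control array, 8.46 on the contralateral array and 8.48 on the ipsilateral array, which gave ratios of -0.27 and -0.26 with an error of 0.20. Rgs5, a regulator of G protein signalling that is widely used as a pericyte marker, had a signal of 8.18 on the control array, 7.76 on the contralateral array and 7.82 on the ipsilateral array. Its ratios were -0.42 and -0.35, with errors of 0.21, and it had the lowest ratio of the 10 genes on both sides.

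The Rgs5 probes gave like ratios. On the contralateral side they were -0.45 and -0.39, and on the ipsilateral side -0.35 for both. Among the measured genes, 7.41% had a lower contralateral ratio than Rgs5 and 8.27% a lower ipsilateral ratio, so its place was within the range of many genes. The ratios of both genes to control were below 0 under all 10 settings. Relative to the median of the measured genes, Rgs5 ran from -0.46 to -0.29 on the contralateral and from -0.39 to -0.25 on the ipsilateral side, and Pdgfrb from -0.29 to -0.25 and from -0.29 to -0.24.

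Promoters are shown for Abcg2, the member past the fold, for Rgs5, the lowest member, and for Cldn5, a junction gene near the control. The RefSeq table of the GRCr8 assembly held windows for 6 of the 10 genes, and none was matched for Pecam1, Cdh5, Mfsd2a and Pdgfrb. Each window is the 250 bases before the start that the table takes for the gene, read 5' to 3' on the strand of the gene, and capitals mark motif matches on either strand, so that GGGCGG on the other strand reads CCGCCC and CCAAT reads ATTGG. The windows lie at chr4:89075224-89075473 on the plus strand, chr13:84380827-84381076 on the plus strand and chr11:95718599-95718848 on the minus strand.
Abcg2: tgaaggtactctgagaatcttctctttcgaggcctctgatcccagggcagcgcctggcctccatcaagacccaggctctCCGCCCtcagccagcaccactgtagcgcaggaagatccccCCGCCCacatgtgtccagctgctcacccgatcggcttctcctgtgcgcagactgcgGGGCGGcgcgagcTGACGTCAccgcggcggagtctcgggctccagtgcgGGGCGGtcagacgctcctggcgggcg
Rgs5: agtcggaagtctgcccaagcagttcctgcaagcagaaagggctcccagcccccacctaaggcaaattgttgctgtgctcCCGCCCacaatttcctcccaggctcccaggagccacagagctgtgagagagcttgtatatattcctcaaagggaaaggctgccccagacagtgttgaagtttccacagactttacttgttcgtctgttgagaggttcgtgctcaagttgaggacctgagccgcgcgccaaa
Cldn5: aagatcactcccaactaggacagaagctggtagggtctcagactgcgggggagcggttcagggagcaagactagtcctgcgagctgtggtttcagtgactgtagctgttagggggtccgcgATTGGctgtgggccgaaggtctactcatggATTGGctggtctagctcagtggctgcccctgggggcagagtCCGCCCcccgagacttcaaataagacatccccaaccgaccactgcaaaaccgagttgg

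The 7 motifs searched were the cyclic AMP response element TGACGTCA, the GC box GGGCGG, the CCAAT box, the TATA box TATAAA, the antioxidant response element core TGACNNNGC, the hypoxia response element core ACGTG and the glucocorticoid receptor core AGAACA. Matches of different motifs could share bases, as where the last GC of TGACNNNGC lies within GGGCGG, but TGACNNNGC had no match in these windows. The Abcg2 window held 4 GC boxes, beginning at -171, -131, -75 and -26 counted from the start, and a cyclic AMP response element beginning at -62. Of all 33469 promoter windows of this length, 1.59% held the cyclic AMP response element and 30.5% a GC box on either strand. The Rgs5 window held 1 GC box, and the Cldn5 window held 1 GC box and 2 CCAAT boxes, a motif found in 34.0% of windows. The TATA box (12.9% of windows), the antioxidant core (10.1%), the hypoxia core (16.6%) and the glucocorticoid core (17.5%) matched none of these 3 windows. Of the windows not shown, that of Abcb1a held 1 GC box and those of Ocln and Tjp1 none of the 7 motifs. A match describes the letters and does not show that a factor binds there.

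Apart from Abcg2, the members kept within the fold of the control at 2 days. Against control, 1 of the 10 was above 1 on the contralateral side and 0 were below -1, where 1.41% and 0.851% of the measured genes were. On the ipsilateral side 1 was above 1 and 0 were below -1, beside 3.1% and 0.797% of the measured genes. Between the MCAO pools 0 were past the fold, beside 0.217% of the measured genes above 1 and 1.54% below -1.

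By the smaller step of the scanner error, where several calls depend on the setting, 2 members (Abcb1a and Abcg2) were above and 3 (Pecam1, Pdgfrb and Rgs5) below the control on the contralateral side, beside 15.6% and 17.1% of the measured genes. On the ipsilateral side 3 were above (Cdh5, Abcb1a and Abcg2) and 2 below (Pdgfrb and Rgs5), beside 21.8% and 14.9%. Between the sides 0 members were above and 1, Cdh5, was below, beside 6.52% and 16.2%. Without scaling the other 9 members were above between the sides and Cdh5 was not called. Cldn5 and Cdh5 were then also below the control contralaterally, and Abcb1a was not called. Ipsilaterally all members but Abcg2 and Cdh5 were then below, and Cdh5 was not called. The medians of the measured genes were then 0.37 between the sides, -0.14 contralaterally and -0.50 ipsilaterally, and their shares beyond the error were not counted. Between the sides and ipsilaterally that median was itself beyond the median scanner error of 0.21, so these calls show nothing particular to the members. With quantile normalization alone, Abcb1a was above between the sides, at 0.25. The median log2 ratio of the 10 members was -0.02 on the contralateral side, 0.08 on the ipsilateral side and -0.05 between the sides.

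By class, the junction members had medians of -0.09 and -0.01 on the contralateral and ipsilateral sides, the transporters 0.35 and 0.24, and the mural genes -0.34 and -0.31. Relative to the median of the measured genes, the transporter medians were above 0 and the mural medians below 0 under all 10 settings on both sides. The ipsilateral junction median turned from below to above 0 under normexp. The classes hold 5, 3 and 2 genes, and nothing particular to a class was tested.

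**Figure D2:**
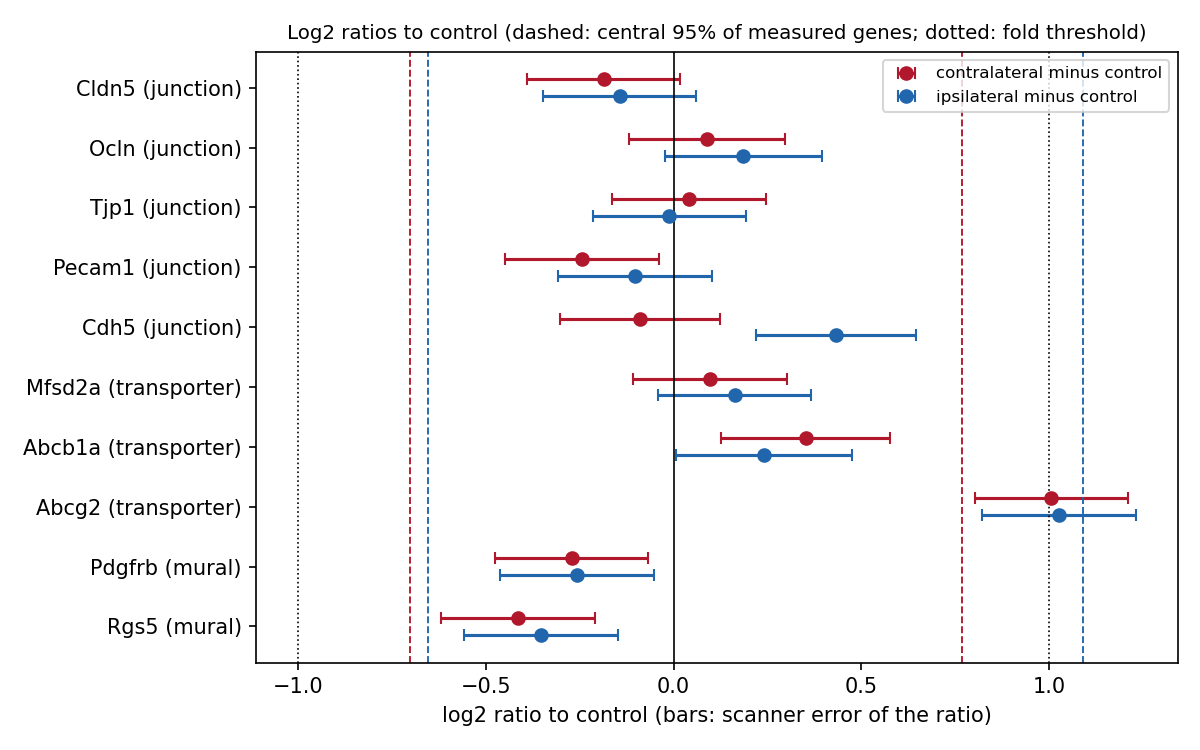
Log2 ratios of the 10 genes to the control array on the contralateral and ipsilateral sides, with the scanner error of each ratio as a bar; dashed lines bound the central 95% of the measured genes on each side and dotted lines mark the fold threshold of 1. Abcg2 lies beyond the contralateral bound of 0.77 and inside the ipsilateral bound of 1.09, and the other 9 genes lie inside both.

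**Figure D3:**
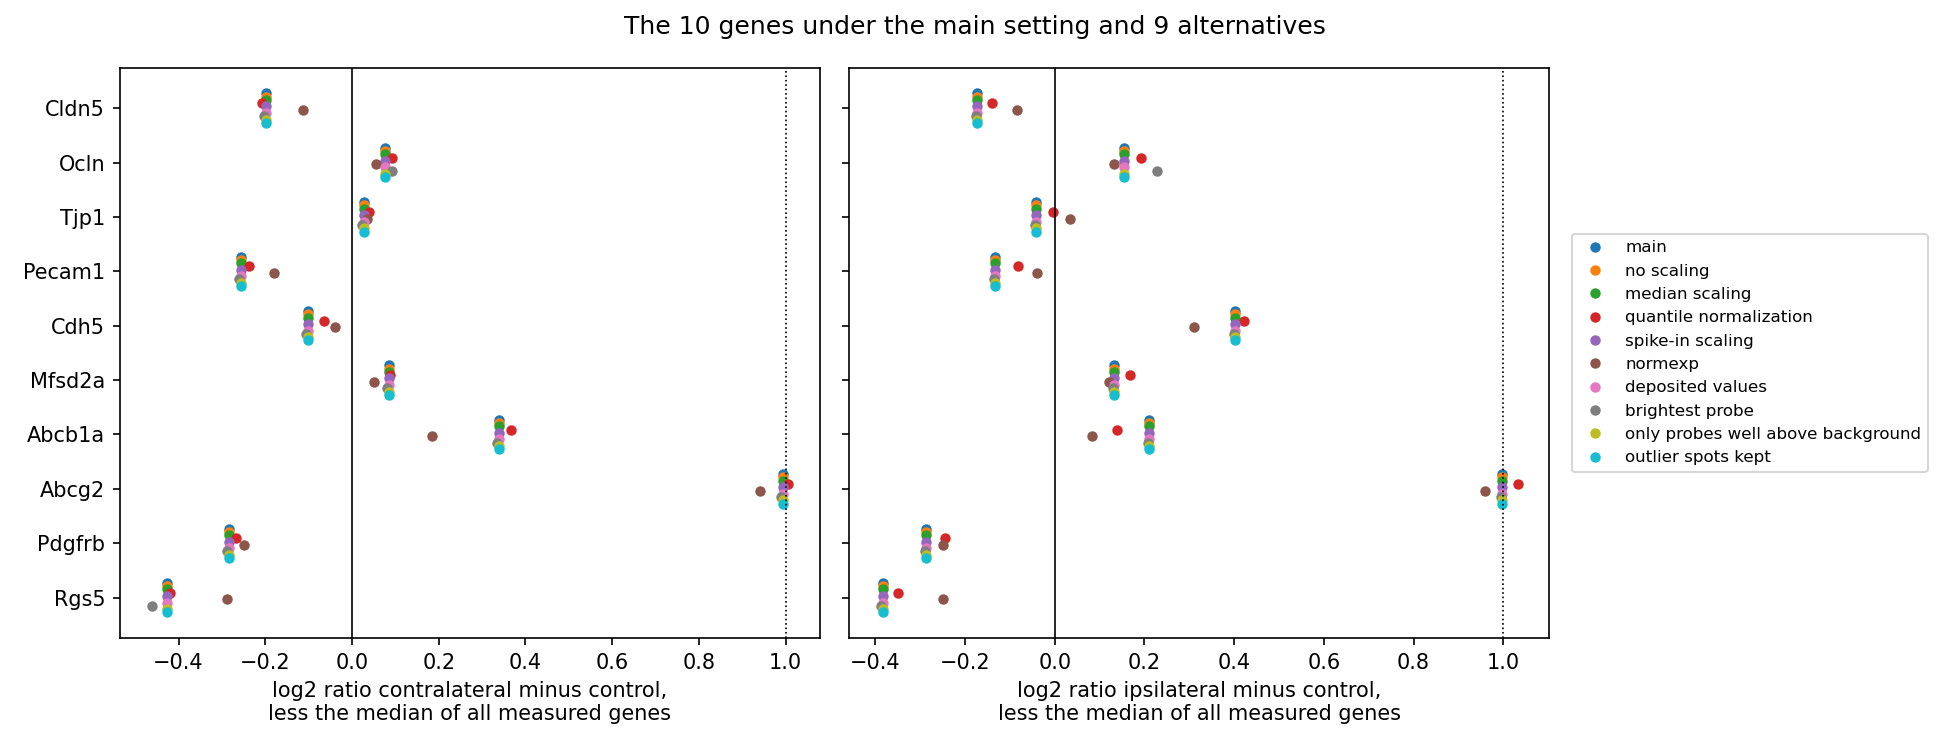
Log2 ratios of the 10 genes to control under the main setting and 9 alternatives, each less the median of the measured genes under that setting, contralateral on the left and ipsilateral on the right; colours mark the settings and the dotted line is at 1. Abcg2 runs from 0.94 to 1.01 and from 0.96 to 1.03, and normexp draws most of the other genes toward 0.

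To set these genes among others of the same structures, 11 wider lists were read, with 122 measured genes and no gene in more than 1 list. The lists too were chosen with earlier results known, so the shares below are no independent check. Of the 122, 66.4% had a contralateral ratio to control below 0, beside 47.6% of all measured genes, and 58.2% had an ipsilateral ratio below 0, beside 44.1%. The lists' medians ran from -0.23 to 0.04 on the contralateral side and from -0.35 to 0.04 on the ipsilateral side. Relative to the median of the measured genes, 10 of the 11 medians were below 0 on each side, the exception being the junction list on the contralateral and the activation list on the ipsilateral side.

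**Figure D4:**
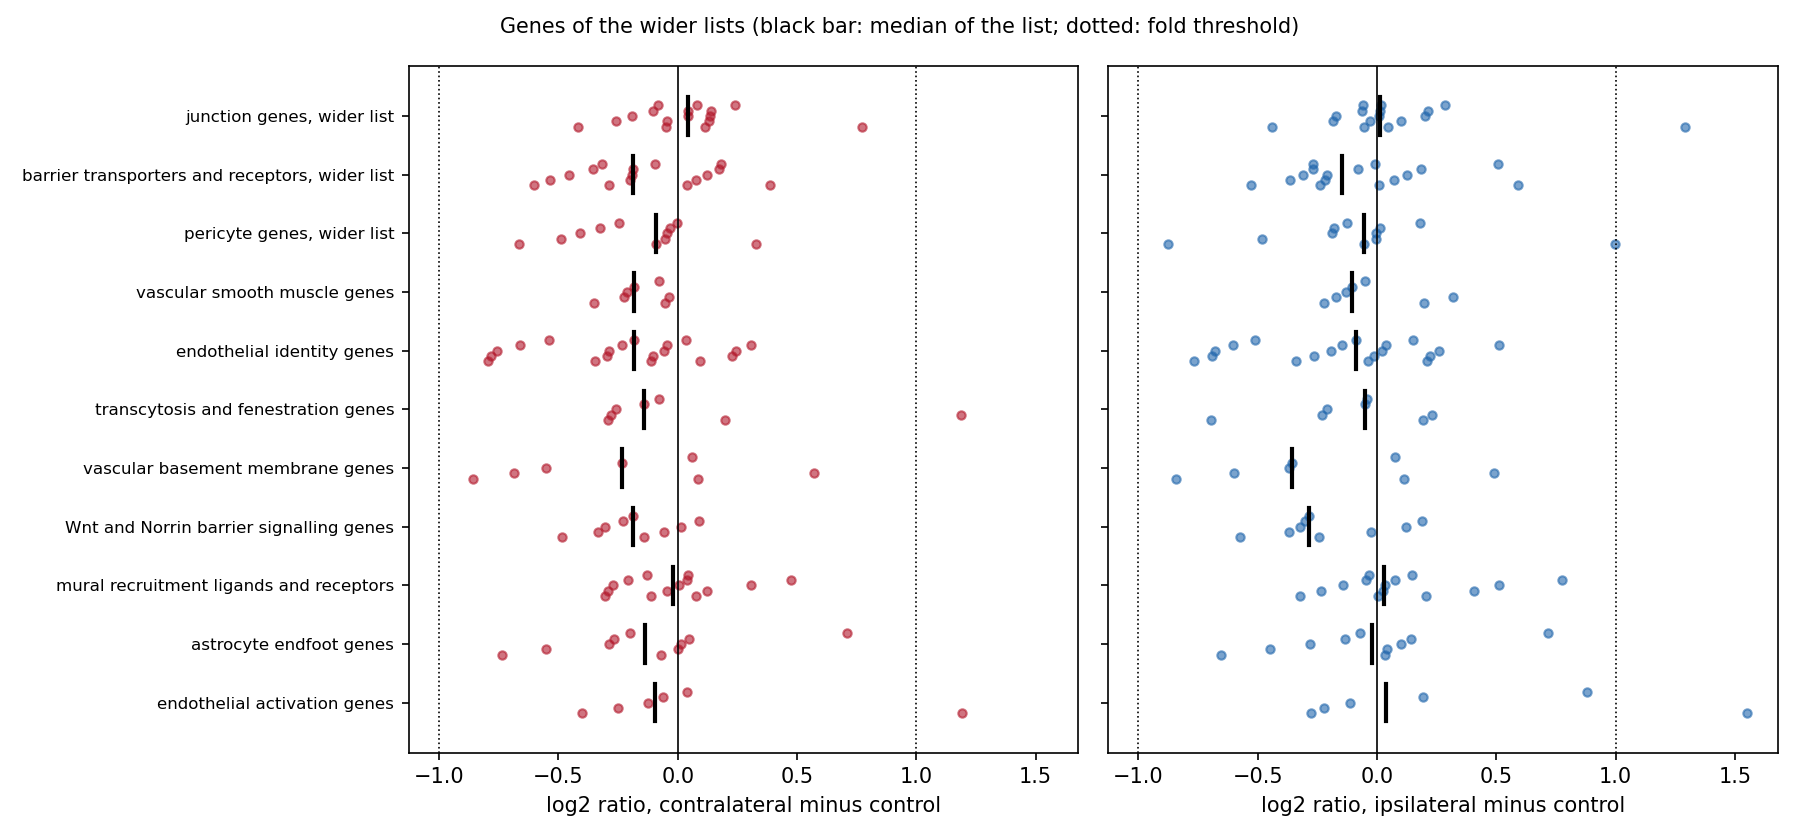
Log2 ratios to control of the measured genes of 11 wider lists, 1 point a gene, contralateral on the left and ipsilateral on the right; the black bar is the median of the list and dotted lines mark the fold threshold of 1. Cldn1 at 1.29, Lrg1 at 1.55 and, on the contralateral side, Aplnr at 1.19 lie apart from the rest of their lists.

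Other junction genes were spread around the control like the members. Of 19 listed, 18 were matched and 16 measured, with 9 above 0 and 7 below on each side and medians of 0.04 and 0.01. Relative to the median of the measured genes, the contralateral median was above 0 under 9 of 10 settings and the ipsilateral median under 1. Cldn1, a claudin best known from epithelia, had the highest ratio on both sides. Its signal was 5.18 on the control array, 5.95 on the contralateral array and 6.47 on the ipsilateral array. The ratios were 0.77 and 1.29, the latter past the fold, though the constant shift of each array without scaling puts it below 1. Afdn, which links nectins to actin, had the lowest, at -0.42 and -0.44. Between the sides, Cldn1 was lowest at -0.52 and Ctnnd1, a catenin bound to cadherins, highest at 0.16.

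Of 20 further barrier transporters and receptors, 19 were matched and 16 measured, with 6 above 0 and 10 below on each side, medians of -0.19 and -0.15, and 0 past the fold. Slc2a1, the glucose transporter GLUT1, had a signal of 12.50 on the control array, 12.88 on the contralateral array and 13.01 on the ipsilateral array. Its contralateral ratio of 0.39 was the highest of the list. The lowest ratios to control were those of the amino acid transporter Slc38a5 on the contralateral side, at -0.60, and of the monocarboxylate transporter Slc16a1 on the ipsilateral side, at -0.53. The receptor Lrp1 was highest between the sides, at 0.16.

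Pericyte genes other than Pdgfrb and Rgs5 were on the low side as well, most of them by less than the scanner error. Of 15 listed, 14 were matched and 11 measured. On the contralateral side 10 of the 11 were below 0, with a median of -0.09, and on the ipsilateral side 8 were, with a median of -0.05. Mcam, an adhesion molecule of mural cells and endothelium, was lowest on both sides at -0.67 and -0.88, with a signal of 9.32 on the control array, 8.65 on the contralateral array and 8.44 on the ipsilateral array. It was also the highest between the sides, at 0.21. Atp13a5, a transport ATPase of brain pericytes, was highest on both sides at 0.33 on the contralateral and just short of the fold on the ipsilateral side, and lowest between the sides at -0.67, from a dim probe with a scanner error of about 0.30.

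The smooth muscle list lay mostly below 0 as well, and among measured genes its extremes were nearer to 0 than those of the pericyte list. Cnn1 and Lmod1 were not measured, so that comparison leaves them out. Cnn1 was at least 2.09-fold higher on the control than on the contralateral array. Its ipsilateral log2 ratio to control was 0.82, with an error of 0.31. Lmod1, which had a dim probe, had log2 ratios to control of 1.29 contralaterally and 2.25 ipsilaterally, with errors of 0.87 and 0.85. Of 9 genes, 9 were matched and 7 measured. On the contralateral side all 7 were below 0, with a median of -0.18, and on the ipsilateral side 5 were, with a median of -0.10. Of the measured genes, Tagln was lowest on the contralateral side (-0.35) and Myl9 on the ipsilateral side (-0.22). Tpm2 was the highest of them on both (-0.04 and 0.32). Between the sides, Des was the lowest measured gene at -0.41 and Myh11 the highest at 0.05.

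Most of the measured endothelial identity genes lay below 0 in both MCAO pools. Of 26 listed, 22 were matched and 19 measured, with 14 below 0 and a median of -0.18 on the contralateral side, and 12 below 0 and a median of -0.09 on the ipsilateral side. Kdr, the main receptor for vascular endothelial growth factor A, had a signal of 11.08 on the control array, 10.42 on the contralateral array and 10.31 on the ipsilateral array. Its ipsilateral ratio of -0.77 was the lowest of the list and its ratio between the sides, 0.11, the highest. On the contralateral side the lectin-like receptor Clec14a was lowest, at -0.79. The highest ratios were those of Ly6e on the contralateral side (0.31) and of Nostrin, which regulates the trafficking of endothelial nitric oxide synthase, on the ipsilateral side (0.51). Nos3, that synthase itself, was lowest between the sides at -0.34. Kdr, Tek, Tie1, Emcn, Sox18, Itm2a and Clec14a were below the control in both MCAO pools, each by more than its scanner error. Erg, Ly6e and Nostrin were above it in both pools by more than theirs, Erg only just. These single genes were not run under the alternatives.

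Genes of vesicle transport and fenestration had medians of -0.14 and -0.05, with 8 of 8 matched, 7 measured and 5 below 0 on each side. Aplnr, the apelin receptor, had a dim probe with a signal of 4.94 on the control array, 6.13 on the contralateral array and 4.24 on the ipsilateral array. Its ratios to control were thus 1.19 and -0.70, with errors of 0.26 and 0.34, and the ratio between the sides was 1.88. Cav2, a caveolin, was lowest on the contralateral side at -0.29, and Cavin1, a caveolar coat protein, was highest on the ipsilateral side at 0.23 and lowest between the sides at -0.51.

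The basement membrane list had the lowest median on both sides. Of 12 genes, 8 were matched and 7 measured, with 4 below 0 on each side and medians of -0.23 and -0.35. The laminin chain Lama4 was lowest on the contralateral side at -0.86 and between the sides at -0.26. Nid2, a nidogen, was lowest on the ipsilateral side at -0.84 and highest between the sides at 0.16. Sparc, a collagen-binding protein, was highest on both sides at 0.57 and 0.49, so the list held genes well to either side of 0.

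Wnt and Norrin signalling genes had medians of -0.19 and -0.28, with 12 of 15 matched, 9 measured and 7 below 0 on each side. The ligand Wnt7a was lowest on both sides, at -0.48 and -0.57, with a signal of 6.78 on the control array, 6.30 on the contralateral array and 6.21 on the ipsilateral array. The co-receptors Lrp6 and Lrp5 were highest on the contralateral and ipsilateral sides, at 0.09 and 0.19. Between the sides the target gene Axin2 was highest at 0.14 and the transcription factor Lef1 lowest at -0.18, both within the scanner error.

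Ligands and receptors of mural cell recruitment were close to the control, with medians of -0.02 and 0.03, 16 of 16 matched and 14 measured, of which 7 and 9 were above 0. Relative to the median of the measured genes, the ipsilateral median was above 0 under 2 of 10 settings and the contralateral median under 0. Mfge8, a secreted integrin ligand, was highest on the contralateral side at 0.47 and between the sides at 0.07, and the growth factor Tgfb1 was highest on the ipsilateral side at 0.77. The lowest were the receptors Tgfbr2 on the contralateral side (-0.31) and Notch1 on the ipsilateral side (-0.32). Pdgfb, the ligand of Pdgfrb, had a dim probe with signals of 3.56 on the control array, 3.52 on the contralateral array and 4.08 on the ipsilateral array, and was lowest between the sides at -0.56 with an error of 0.45.

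Astrocyte endfoot genes had medians of -0.14 and -0.02, with 10 of 12 matched, all of them measured, and 6 and 5 below 0. Gjb6, the astrocyte connexin 30, was highest on both sides at 0.71 and 0.72, and Gfap, the intermediate filament of astrocytes, lowest on both at -0.73 and -0.66. Between the sides the glutamate transporter Slc1a2 was highest at 0.21 and the potassium channel Kcnj10 lowest at -0.41.

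Of 12 endothelial activation genes, 11 were matched and 6 measured, with 4 and 3 below 0 and medians of -0.09 and 0.04. Lrg1, a secreted glycoprotein of activated endothelium and of the acute phase, had a signal of 9.45 on the control array and 10.64 on the contralateral array, and was higher still on the ipsilateral array. Its ratios of 1.19 and 1.55 were past the fold on both sides. The adhesion molecule Icam2 was lowest on both, at -0.40 and -0.28. Between the sides the lipocalin Lcn2 was lowest at -0.94 and the chemokine Ccl2 highest at 0.15. Selp, Cxcl1, Il6 and Mmp9 were not well above background on any array.

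Between the sides of the MCAO rats, the medians of the 11 wider lists were small. The wider junction, Wnt and Norrin lists had medians of 0.01 and 0.09, and the others ran from -0.22 for the activation genes to -0.02 for the basement membrane.

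Markers of other tissues and cell types were read for the makeup of the pools. Of 14 choroid plexus markers, 14 were matched and 10 measured. All 10 were below 0 on the contralateral side, with a median of -0.64, whereas on the ipsilateral side 7 of 10 were above 0, with a median of 0.35 that became -0.19 without scaling. Their summed linear signal was 12015 on the contralateral, 78818 on the ipsilateral and 35992 on the control array, the brightest gene was Ttr, and Cldn2 and Tmem72 were not well above background on any array. Ttr had ratios to control of -1.73 and 1.19 and a ratio between the sides of -2.93. Slc4a5 was lowest on both sides, at -2.12 and -1.20, and Otx2 was highest on the contralateral side at -0.02. Clic6 was highest between the sides at -0.24.

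Of 12 markers of meninges and perivascular fibroblasts, all were matched and measured, and 11 were below 0 contralaterally and 10 ipsilaterally, with medians of -0.60 and -0.26. Their summed signal was 14910 on the contralateral, 19280 on the ipsilateral and 22368 on the control array, and Col1a2 was the brightest. Col1a1 was lowest on the contralateral side at -1.26 and between the sides at -0.65, Lum was lowest on the ipsilateral side at -0.63, and Mgp was highest on both at 0.15 and 0.47. Slc22a6 was highest between the sides at -0.16. Pdgfrb and Rgs5 were also below 0 on both sides, where 47.6% of all measured genes were contralaterally and 44.1% ipsilaterally. Whether the 2 genes follow these markers was not tested.

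Of 8 red blood cell markers, 7 were matched and 4 measured, and all 4 were below 0 on both sides, with medians of -0.87 and -0.96. Their summed signal over the matched genes was 1359 on the contralateral, 1211 on the ipsilateral and 2765 on the control array, and Hba-a1 was the brightest. Hbb-b1 was lowest on both sides, at -1.70 and -2.14, and highest between the sides at 0.44. Ahsp was highest on the contralateral side at -0.75, and Hba-a2 was highest on the ipsilateral side at -0.82 and lowest between the sides at -0.04. Meninges and choroid plexus are tissues with vessels of their own. Their part in the ratios of the mural and endothelial genes, and that of blood, was not tested.

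Microglial markers had medians of 0.18 and 0.08, with 8 of 8 matched and 7 measured, and a summed signal of 4703 on the contralateral, 5907 on the ipsilateral and 3931 on the control array. Cx3cr1, the brightest, was highest on both sides, at 0.78 and 1.27, and lowest between the sides at -0.50. Aif1 was lowest on both, at -0.29 and -0.10, and Tmem119 highest between the sides at 0.20. Oligodendrocyte markers had medians of -0.14 and -0.12 over 6 of 6 genes, with a summed signal of 46851 on the control, 44047 on the contralateral and 45670 on the ipsilateral array. Mobp was highest on both sides at 0.28 and 0.24 and between them at 0.04, Cnp was lowest on both at -0.47 and -0.48, and Mbp was lowest between the sides at -0.07.

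Among the neuronal markers, Zic2 was highest of the granule cell list on both sides (0.45 and 0.28) and between them (0.17). Zic1 was lowest on the contralateral side (-0.19) and between the sides (-0.11), and Neurod1 on the ipsilateral side (-0.17). Of the Purkinje cell list, Itpr1 was highest on the contralateral side (0.22) and between the sides (0.06), and Pvalb was highest on the ipsilateral side (0.26) and lowest between the sides (-0.05). Pcp2 was lowest on both sides at -0.04. Cbln1 and Itpr1 were the brightest genes of these lists, and the part of these markers in the ratios of the barrier genes was not tested either.

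**Figure D5:**
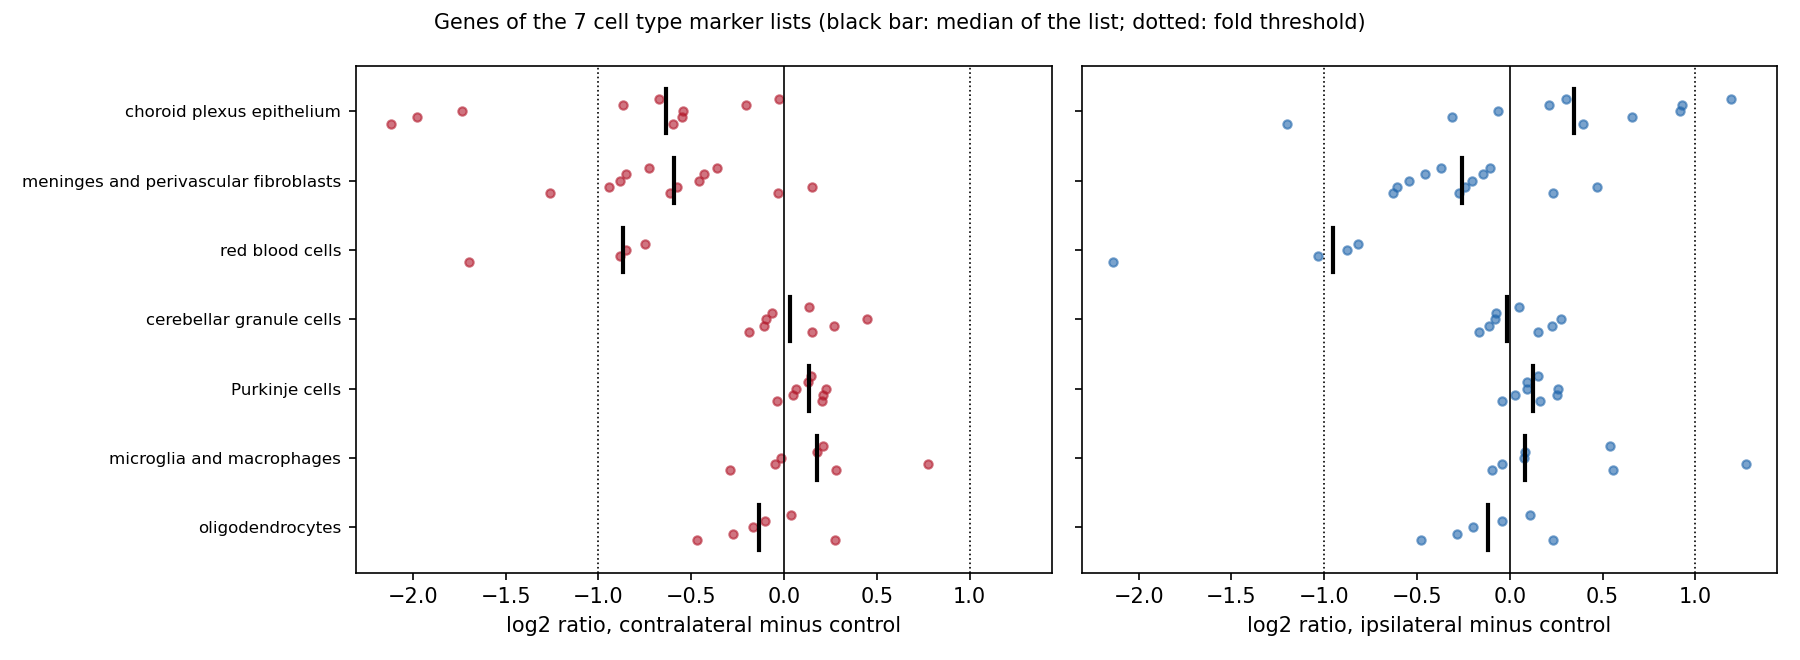
Log2 ratios to control of the measured genes of 7 cell type marker lists, 1 point a gene, contralateral on the left and ipsilateral on the right; the black bar is the median of the list and dotted lines mark the fold threshold of 1. The choroid plexus list lies below 0 on the contralateral side and mostly above 0 on the ipsilateral side, with medians of -0.64 and 0.35, and the red blood cell list lies below 0 on both.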

How the data were processed

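The authors used Agilent arrays with the single dye Cy3 and deposited, for each spot, the intensity read by Agilent Feature Extraction 12.1.0.3, from which background was subtracted without scaling between arrays. They also deposited a table of linear intensity values. These equal the processed signals times 1 factor per array (1.12, 1.45 and 1.04 for contralateral, ipsilateral and control), are not centred by gene, and have medians of 139, 140 and 147. The methods name a normalization to control samples, and whether these factors are its result is not stated. All 3 arrays lay on 1 slide and in 1 scan.

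Log2 processed signals were shifted to a common 75th percentile over all 58717 spots other than controls, of which 42470, 43028 and 43283 were well above background in the same order. The 759 outlier spots on any array were left out, and no spot was saturated. The 75th percentile was 2103, 1614 and 2336 before scaling. A gene's value is the mean of its probes, each the mean of its spots. Genes were named through RefSeq accessions of GRCr8, which matched 17622 of 39957 accessions, and each of the others was kept as a gene of its own. Scanner errors of the probes of a gene were averaged and those of 2 arrays added in quadrature. The number of arrays limits the precision, and no test was made.

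The members and lists were chosen with earlier results of these data known. Named are all members and, of each list, the gene with the highest and the lowest ratio in each comparison among those measured, except where that gene is not reported here. With 3 arrays, no gene was named for likeness to a member. Endothelial identity genes beyond the scanner error in both MCAO pools are named as well, as are some genes not measured. Not matched, and not analysed here, were list genes such as Cgn, Slc7a1, Foxf2, Ptprb, Robo4, Egfl7, Cd93, Col4a2, Lamb1, Nid1, Hspg2, Tcf7, Apcdd1, Reck, Dtna, Hepacam and Ackr1. The alternatives were no scaling, median scaling, quantile normalization alone, the same after normexp (offset 50, on median signals because the files had no mean signal), scaling to 8 spike-in probes, the deposited values, the brightest probe of a gene, only probes well above background, and outlier spots kept. The computation was tested on simulated data, which is no test of the ratios themselves. The tools were R 4.3.3 with limma 3.58.1, and Python 3.11.15 with matplotlib 3.10.9, numpy 2.4.6 and pandas 2.3.3.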

Additional observations from a re-analysis of the deposited data

Results flagged for a closer look

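Aplnr had opposite signs on the 2 sides of the MCAO rats, each beyond its scanner error. Its log2 ratios to control were 1.19 contralaterally and -0.70 ipsilaterally, with 1.88 between them. The probe is dim, with scaled signals of 4.94 on the control and 4.24 on the ipsilateral array, and was not run under the alternatives. Cavin1 had opposite signs beyond its scanner error as well, with smaller values of -0.28, 0.23 and -0.51. The constant shift of each array without scaling puts it below 0 on both sides. Ttr, a choroid plexus marker, was at -1.73, 1.19 and -2.93. The choroid plexus list had a contralateral median of -0.64, an ipsilateral median of 0.35 and a median between the sides of -0.90. Without scaling the ipsilateral median was -0.19, and the median between the sides was -0.52 without scaling and -0.54 under normexp. None of these differences was tested, since each rests on 1 array a side. No member had opposite signs beyond its scanner error.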

How the results depend on the processing

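The results were set against 9 alternatives. A ratio or median counts as the same when it moved by less than its scanner error, and a count when it moved by no more than 1.5 times. By this measure 644 of 702 values for the members and the wider lists were the same and 58 moved. Of the 189 for the marker lists, 172 were the same and 17 moved. Values near 0 can count as the same and yet change sign, as did Ocln, Mfsd2a and Tjp1 for contralateral to control without scaling, at -0.06, -0.05 and -0.11, and Tjp1 for ipsilateral to control under normexp, at 0.03. Abcg2, the member past the fold against control, kept its sign there under all 10 settings. Single genes of the lists were not run under the alternatives.

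Without scaling, the lower signal of the ipsilateral array enters every ratio that holds it, so all values of ipsilateral to control and of contralateral to ipsilateral moved by construction. Given in this order, without scaling the log2 ratios were Cldn5 -0.68 and 0.34, Ocln -0.35 and 0.28, Tjp1 -0.55 and 0.43, Pecam1 -0.64 and 0.24 and Cdh5 -0.10 and -0.14. For the other members they were Mfsd2a -0.37 and 0.32, Abcb1a -0.29 and 0.49, Abcg2 0.49 and 0.36, Pdgfrb -0.79 and 0.37 and Rgs5 -0.89 and 0.32. The median of all members was -0.46 and 0.33, that of the junction members -0.55 and 0.28, of the transporters -0.29 and 0.36 and of the mural genes -0.84 and 0.34.

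For the wider lists the medians without scaling were, in the same order, Wnt and Norrin barrier signalling genes -0.82 and 0.47, astrocyte endfoot genes -0.55 and 0.34, barrier transporters and receptors of the wider list -0.68 and 0.35, and endothelial activation genes -0.50 and 0.16. They were endothelial identity genes -0.62 and 0.35, junction genes of the wider list -0.52 and 0.39, mural recruitment ligands and receptors -0.51 and 0.33, and pericyte genes of the wider list -0.59 and 0.29. The last were transcytosis and fenestration genes -0.59 and 0.35, vascular basement membrane genes -0.89 and 0.37, and vascular smooth muscle genes -0.64 and 0.30.

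For the marker lists the medians without scaling were, in the same order, choroid plexus -0.19 and -0.52, meninges -0.79 and 0.07, red blood cells -1.49 and 0.52, granule cells -0.55 and 0.44, Purkinje cells -0.41 and 0.38, microglia -0.45 and 0.19, and oligodendrocytes -0.65 and 0.39. Under normexp the choroid plexus median was -0.54 for contralateral to ipsilateral, and the red blood cell median was -0.62 for contralateral to control and -0.69 for ipsilateral to control.

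The count of members past the fold, 1 for contralateral to control and 1 for ipsilateral to control, was 0 in both comparisons under no scaling, spike-in scaling, normexp and the deposited values, since Abcg2 lay just above 1. Leaving out dim probes gave the same values by construction, as every probe of these genes was well above background. No paired analysis was possible because there was 1 pooled array for each condition, and for the same reason no array could be left out.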

Other observations

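Some genes of the wider lists had no probe well above background on 1 or 2 arrays and were left out of the counts. For these, bounds were sought. Genes with such a probe on every array were also left out where another probe was dim, Tbx18 and Lmod1 among them. No bound was taken for those. A bound sets the brighter array against the higher of the dim array's own signal and the lowest scaled signal that was well above background there. Where the dim array's own signal was the higher, the value is a plain ratio and not a bound. Cnn1, the smooth muscle calponin, was lost to background on the contralateral array, and was at least 2.09-fold higher on the control array and at least 3.70-fold higher on the ipsilateral array. Esm1, which marks endothelial tip cells, was not well above background on the control array. Its plain ratios to control were 1.58-fold on the contralateral and 3.20-fold on the ipsilateral array, with log2 errors of 0.42 and 0.39.

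Wnt7b was well above background on the ipsilateral array alone, at least 2.21-fold above the contralateral array. Its plain ipsilateral ratio to control was 1.90-fold, with a log2 error of 0.43. P2ry14, a purinergic receptor gene of pericytes, was not well above background on the ipsilateral array. Its plain ratios to that array were 2.04-fold for the control and 1.04-fold for the contralateral array, with log2 errors of 0.39 and 0.44. Cd34 was well above background on the control array alone, where it was at least 1.17-fold above the contralateral array, with no bound for the ipsilateral array. Marveld3 was so on the contralateral array alone, at least 1.29-fold above the control array. It had no bound for the ipsilateral array, where its signal was 3.75 beside 3.49 on the contralateral array. Dll4 was not well above background on the ipsilateral array, and no bound above 1 could be given.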
